A study of Mus musculus with 4 samples.

Results

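Potassium channel genes were followed in basal cells sorted from mouse mammary glands, on a casein diet and on a soy protein diet. The genes were all those whose symbol in the platform annotation begins with Kcn, followed by further letters and a number, and which are read by probe sets of exactly 1 gene. This gave 84 of the 18193 genes measured, on 167 of 34945 probe sets. Of the 84, 81 encode channel subunits. There are 31 pore-forming subunits of voltage-gated channels, 8 of calcium-activated channels and their sodium-activated relatives, 15 inward rectifiers, 12 subunits of the two-pore class and 15 accessory subunits. The other 3, Kcnq1ot1, Kcnmb4os1 and Kcnmb4os2, are transcripts named after channel genes and encode no subunit.

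All mice carried MMTV-Wnt1, a transgene in which a mouse mammary tumour virus promoter drives the Wnt1 ligand in the mammary gland, on the mixed background B66SJL/HEV/J. The cells were sorted as the basal population, which per the labels holds stem cells, myoepithelial cells and their progenitors. The sample titles call them MaSC-enriched, where MaSC stands for mammary stem cell. Of the 4 Affymetrix arrays, 2 were from the control casein (CAS) diet and 2 from the soy protein isolate (SPI) diet. Age, time on the diet and the number of animals behind an array are not given in the sources used here, and no label states that separate animals lie behind the arrays. The p-values therefore reflect the spread among these 4 samples alone, and that spread may be technical.

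Potassium channels let potassium ions leave the cell and so hold the membrane voltage negative. Voltage-gated channels open when the membrane depolarises, calcium-activated channels open when calcium in the cell rises, and inward rectifiers and the two-pore class carry much of the resting current. Accessory subunits do not form the pore but set how the pore opens, closes or reaches the membrane. In secretory epithelium these channels are known to support the transport of salt and water.

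The values are log2 expression values that had been centred, so that the median of the 4 arrays is 0 for each probe set. A value is therefore a difference from that median and not a level, and levels of different genes were not compared. The digits of the values give a coarse class of the level before centring. On that scale 9 of the 84 genes were in the class 8 to 16, 43 in the class 4 to 8, 28 in the class 2 to 4 and 4 under 2. At 4 or above were 61.9% of the potassium channel genes and 75.3% of all genes. The class is read by a rule that can place a probe set too high by chance, and level 4 does not establish expression.

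The basal identity of the cells was checked on 17 markers. Of these, 15 were in the class 8 to 16, Krt5, Krt14 and Acta2 among them, and 4 were higher in SPI. The class does not set basal cells apart, since 13 of 18 luminal markers, Krt8, Krt18 and Epcam among them, 7 of 13 fibroblast markers and 5852 of the 18193 genes were in it too. Markers of other cells moved between the diets. Lower in SPI were 12 of 13 fibroblast markers, 6 of 18 luminal, 4 of 10 endothelial, 4 of 10 pericyte and vascular smooth muscle, 4 of 7 mast cell, 3 of 6 adipocyte and 1 of 8 Schwann cell and nerve markers. The 11 leukocyte markers had a median difference of 0.13 and the 8 skeletal muscle markers one of -0.01. The fibroblast list had a median of 0.74 and 0.79 in CAS and of -0.84 and -0.83 in SPI, and the luminal list one of 0.23 and 0.27 against -0.20 and -0.46. In such bulk samples fewer cells of a type and less RNA per cell cannot be told apart, and the part of these cells in the results that follow was not tested.

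Of the 84 potassium channel genes, 3 passed the test. Kcnmb2 rose, and Kcnq1 and Kcne4 fell on the soy diet. These are 3.57% of the 84, where 3.68% of all genes passed (limma, adjusted p under 0.05 by Benjamini-Hochberg over all genes), so the share is that of the background and is not a result about the family. In the upward direction 1 passed (0.792% of all genes did) and in the downward direction 2 (2.89% of all genes). The median difference, SPI minus CAS on the log2 scale, was 0.02 over the 84 and 0.02 over all genes. Of the 84, 64 lay within 0.2 of 0, which is 76.2% against 75.9% of all genes. Differences of at least 0.5 were found in 6 (7.14%, against 4.16% of all genes), the 3 named and Kcnj8, Kcnn4 and Kcnk6, all lower in SPI but for Kcnmb2. At an unadjusted p under 0.05 were 13 of the 84, where 21% of all genes were.

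A second scaling sets the arrays by hybridization controls, foreign transcripts spiked into each sample before it is put on the array. With it the median of all genes moved from 0.02 to 0.18. The 3 calls became 9, of which 5 were higher and 4 lower, and those over all genes went from 144 higher and 526 lower to 1663 higher and 518 lower. The differences below are relative to the scaling as deposited unless another is named.

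**Figure D1:**
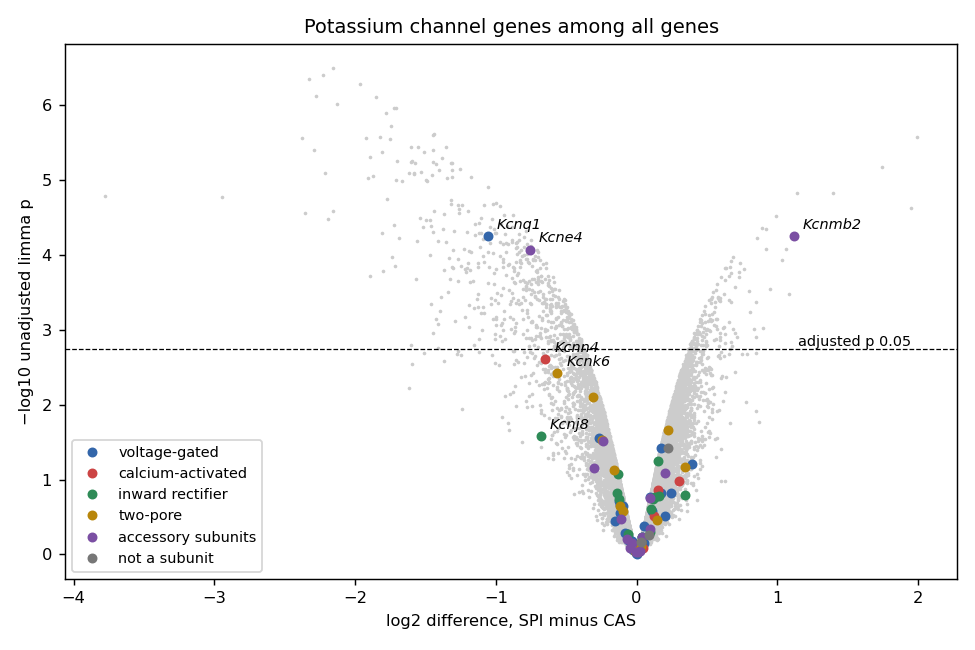
Every gene is placed by its log2 difference, SPI minus CAS (horizontal axis), and by the size of its unadjusted limma p as −log10 (vertical axis); potassium channel genes are coloured by class, all other genes are grey, and the dashed line marks an adjusted p of 0.05. Of the 84 coloured points, Kcnmb2, Kcnq1 and Kcne4 lie above the line, Kcnn4 and Kcnk6 just below it, and 64 lie within 0.2 of 0.

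Kcnmb2, an accessory subunit that gives the large-conductance calcium-activated channel (BK) its inactivation, had the largest difference of the 84 and rose. It (Entrez gene 72413) is read by 2 probe sets, 1 of which can bind related transcripts. Their mean was -0.50 and -0.68 in CAS and 0.47 and 0.58 in SPI, on the centred log2 scale. The arrays of the diets were well apart, with a gap within a diet of at most 0.18. Kcnmb2 was 2.17-fold higher in SPI with 2 arrays in each diet (95% interval 1.85 to 2.54, adjusted p = 0.00921 in limma). The probe sets agreed in direction and size, at 1.05 and 1.19 on the log2 scale. Tested as single probe sets, the specific one passed (adjusted p = 0.00632) and the other did not (adjusted p = 0.0566).

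Kcnq1 encodes the pore of a voltage-gated channel that carries the slow repolarising current of the heart and recycles potassium in epithelia. The 1 probe set of Kcnq1 (Entrez gene 16535) was at 0.53 and 0.47 in CAS and at -0.47 and -0.64 in SPI. Kcnq1 was 2.08-fold lower in SPI (1.79 to 2.42, adjusted p = 0.00928). Kcne4 encodes a single-span subunit that assembles with the KCNQ1 pore and is known to inhibit its current. The 1 probe set of Kcne4 (Entrez gene 57814) was at 0.35 and 0.38 in CAS and at -0.43 and -0.35 in SPI, so that the arrays within a diet differed by at most 0.076. Kcne4 was 1.69-fold lower, a log2 difference of -0.76 (95% interval -0.93 to -0.59, adjusted p = 0.0110). A pore-forming subunit and an accessory subunit of the same channel type were thus both lower in SPI, on the same arrays.

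None of the 3 calls held when 1 array was left out and a lone array stood for a diet, while the log2 differences stayed between 1.03 and 1.20 for Kcnmb2, between -1.14 and -0.97 for Kcnq1 and between -0.80 and -0.72 for Kcne4. For Kcnmb2 the adjusted p was 0.172 without CAS replicate 1, 0.167 without CAS replicate 2, 0.0788 without SPI replicate 1 and 0.120 without SPI replicate 2. For Kcnq1 it was 0.196, 0.171, 0.0584 and 0.0936 in the same order, and for Kcne4 0.196, 0.177, 0.0952 and 0.117. Over the whole table the limma count was also 0 without any 1 of these arrays, with 2494 to 3082 genes at an unadjusted p under 0.05. The marker lists had median differences of -1.56 for fibroblast, -0.78 for mast cell, -0.65 for endothelial, -0.64 for luminal and -0.55 for pericyte markers. Schwann cell and adipocyte markers were each at -0.26, skeletal muscle at -0.01, basal at 0.07 and leukocyte markers at 0.13. How these lists relate to the 3 genes was not tested.

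The stretch upstream of the start site is shown for Kcnmb2 and Kcne4, as members that moved in opposite directions, and for Kcnn4, the calcium-activated pore nearest to the threshold. Each line gives the 250 bases before the RefSeq start on GRCm38.p6, plus strand, 5′ to 3′. Capitals mark matches on either strand to any of 5 motifs that were searched: the GC box GGGCGG, the E-box CANNTG, the AP-1 site TGANTCA, the TATA box TATAAA and the GAS element TTCNNNGAA.
Kcnmb2, chr3:31902453-31902702: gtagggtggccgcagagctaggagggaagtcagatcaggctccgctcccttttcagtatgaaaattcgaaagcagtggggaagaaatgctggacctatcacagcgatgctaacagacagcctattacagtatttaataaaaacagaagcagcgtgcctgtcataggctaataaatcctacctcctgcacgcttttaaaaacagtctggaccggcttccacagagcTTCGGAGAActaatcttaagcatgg
Kcne4, chr1:78816661-78816910: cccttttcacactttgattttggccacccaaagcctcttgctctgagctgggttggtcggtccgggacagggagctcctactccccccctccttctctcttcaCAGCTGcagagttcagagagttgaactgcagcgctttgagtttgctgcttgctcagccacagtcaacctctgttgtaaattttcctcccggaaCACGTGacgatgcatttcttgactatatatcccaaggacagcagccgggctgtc
Kcnn4, chr7:24370013-24370262: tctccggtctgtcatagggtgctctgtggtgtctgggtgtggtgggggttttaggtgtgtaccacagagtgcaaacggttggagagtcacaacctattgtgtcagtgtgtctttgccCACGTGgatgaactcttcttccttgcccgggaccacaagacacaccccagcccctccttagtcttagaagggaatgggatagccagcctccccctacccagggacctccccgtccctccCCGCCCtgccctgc

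The Kcnmb2 window held 1 GAS element and no match to the other 4 motifs. The Kcne4 window held 2 E-boxes and the Kcnn4 window 1 E-box and 1 GC box. No marked match overlapped another. Of 32841 such upstream windows in RefSeq, 7.02% held the GAS element, 66.2% the E-box, 32.7% the GC box, 6.75% the AP-1 site and 12.4% the TATA box. RefSeq windows matched 64 of the 84 potassium channel genes, with 89 windows in all. Of these, 7.87% held the GAS element, 67.4% the E-box, 44.9% the GC box, 4.49% the AP-1 site and 3.37% the TATA box. Their median GC content was 58.8%, and that of all windows was 52.4%. A match is a run of letters and not a binding site.

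**Figure D2:**
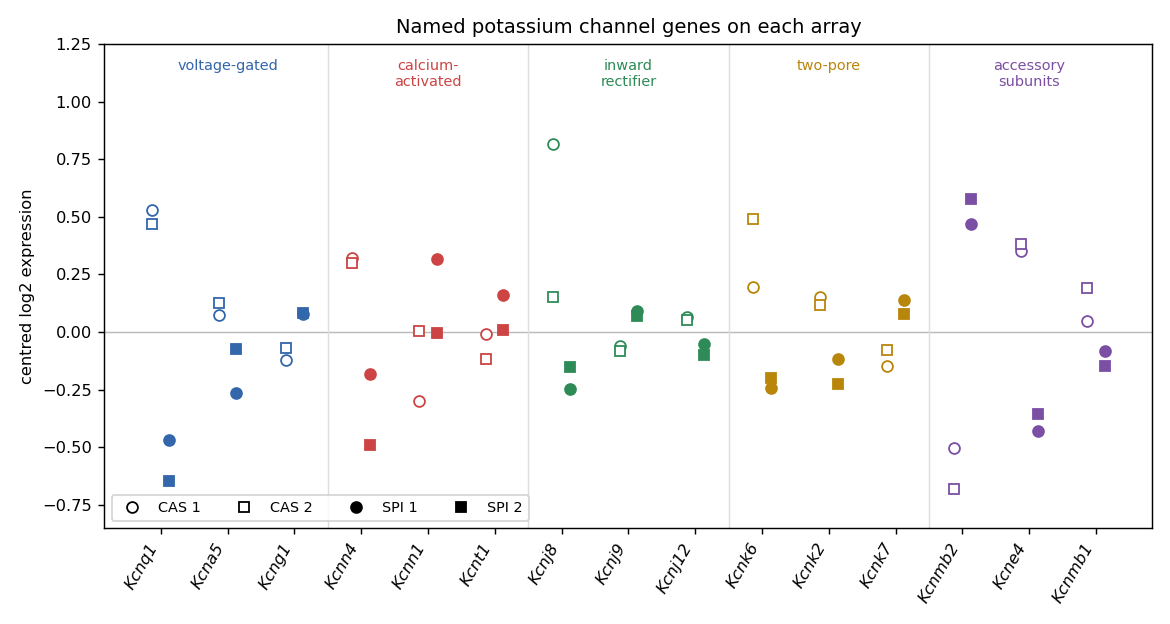
Centred log2 expression (vertical axis) of 15 potassium channel genes on each array, in 5 classes; open symbols are CAS and filled symbols SPI, circles are replicate 1 and squares replicate 2. The diets are widely apart for Kcnmb2, Kcnq1 and Kcne4, and the arrays of Kcnn1 overlap. For Kcnj8 the CAS arrays lie far from each other, at 0.82 and 0.15, both above the SPI arrays.

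The BK channel is the large-conductance channel that opens with voltage and calcium, and its accessory subunits did not move together. Kcnma1, its pore, was at -0.06 and 0.01 in CAS and at -0.0022 and 0.0022 in SPI. The difference was 0.02 on the log2 scale (95% interval -0.14 to 0.19), so a change as large as that of Kcnmb2 lies outside its interval. That value comes from 1 of 5 Kcnma1 probe sets, which can bind related transcripts, and the other 4 were between -0.30 and 0.13, with none past the threshold. Kcnmb1, the subunit that raises the calcium sensitivity of BK in smooth muscle, was at 0.05 and 0.19 in CAS and at -0.08 and -0.15 in SPI. Its difference of -0.24 did not pass (adjusted p = 0.188). Kcnmb4, the subunit of neuronal BK channels, was at -0.07 with overlapping arrays. Lrrc26, no Kcn gene but the BK subunit that lets the channel open at rest in secretory epithelia, was at 0.45 and 0.54 in CAS and at -0.45 and -0.83 in SPI. Lrrc26 was 2.20-fold lower (1.72 to 2.80, adjusted p = 0.0225). Kcnmb2 and Lrrc26 therefore lay at opposite ends among the BK subunits measured, and the related Lrrc38 (0.21) and Lrrc52 (-0.12) did not pass.

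The KCNE subunits other than Kcne4 did not pass the test. Kcne3, which keeps the KCNQ1 channel open in epithelia, was at 0.36 and 0.03 in CAS and at -0.03 and -0.20 in SPI. Its difference was -0.30 with an interval from -0.64 to 0.04, wide because the CAS arrays lay 0.33 apart. Kcne1, the partner of KCNQ1 in heart and inner ear, was at 0.20, Kcne2 at 0.10 and the KCNE1-like Kcne1l at 0.02.

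**Figure D3:**
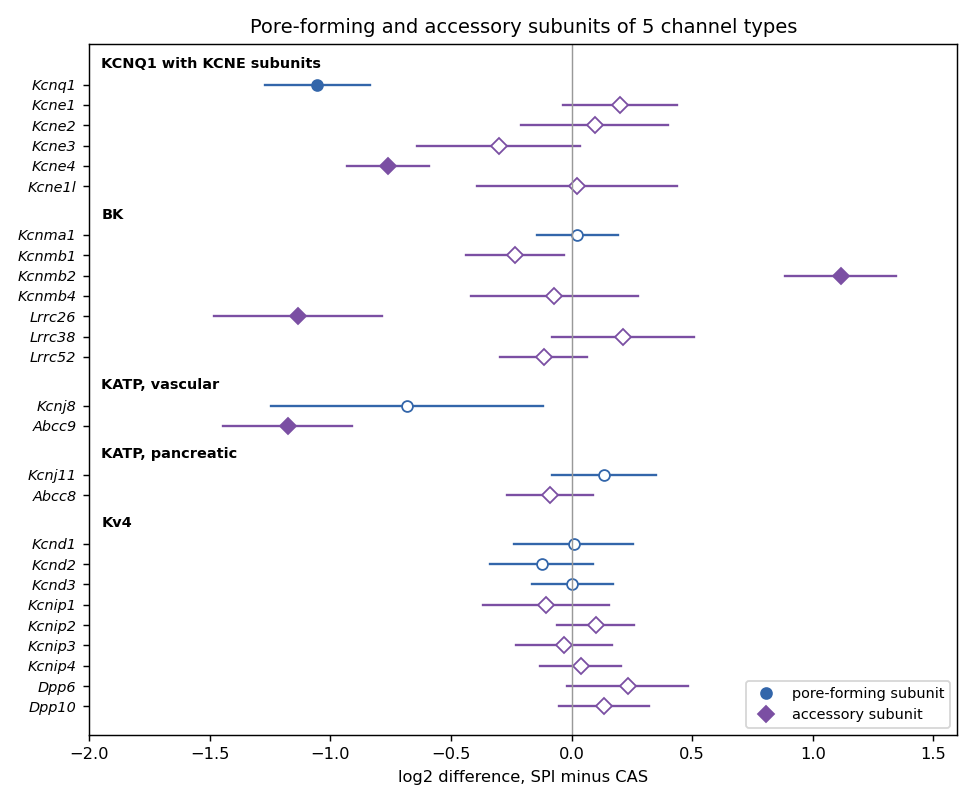
Log2 difference, SPI minus CAS (horizontal axis), with the 95% limma interval, for the pore-forming (circles) and accessory (diamonds) subunits of 5 channel types; filled symbols passed the test. In the KCNQ1 type the pore and Kcne4 are both lower, in BK the accessory Kcnmb2 is higher at 1.12 and Lrrc26 lower at -1.13 around a pore at 0.02, and the Kv4 subunits lie around 0.

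The remaining accessory subunits were close to 0. The KChIP genes Kcnip1 to Kcnip4 encode calcium-binding partners of the Kv4 pores, and their differences were -0.11, 0.10, -0.03 and 0.04. The cytoplasmic beta subunits of Kv1 channels, Kcnab1, Kcnab2 and Kcnab3, were at -0.04, -0.01 and 0.01. Kcnab1 was the least precise of these, with CAS arrays at -0.22 and 0.31. Of the 15 accessory subunits 1 rose, 1 fell and 13 did not pass, with a median of -0.01. Those that passed are 13.3% of the class, against 3.68% of all genes, and that gap was not tested.

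Among calcium-activated pores, 0 of 8 passed the test (3.68% of all genes did). In limma 1 of them had an unadjusted p under 0.05, where 21% of all genes had one. That was Kcnn4, the intermediate-conductance channel of epithelia and immune cells. Its arrays were at 0.32 and 0.30 in CAS and at -0.18 and -0.49 in SPI, apart but with SPI arrays that differed by 0.31. Kcnn4 was 1.57-fold lower (1.28 to 1.92), which did not pass (adjusted p = 0.0575). Its 2 probe sets, each of which can bind related transcripts, were at -0.52 and -0.77. It passed among genes at level 4 or above (adjusted p = 0.0351), and over its alternatives the adjusted p ran from 0.0292 to 0.319. Leukocyte markers had a median difference of 0.13, luminal markers one of -0.64 and basal markers one of 0.07. A link of Kcnn4 to them was not tested.

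The small-conductance channels lay above 0 without passing. Kcnn1 was at -0.30 and 0.01 in CAS and at 0.32 and -0.01 in SPI, and so overlapped. Kcnn2 and Kcnn3 were at 0.13 and 0.03. The sodium-activated Kcnt1 was at 0.15 and Kcnt2 at 0.02, and the sperm channel gene Kcnu1 at 0.04. The median of the 8 was 0.04.

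Of 31 voltage-gated pores 1 fell, Kcnq1, and 30 did not pass, with a median of 0.00. The share that passed was 3.23%, against 3.68% of all genes. Of the 31, 26 lay within 0.2 of 0 (83.9%, against 75.9% of all genes). Kcna5, the Kv1.5 pore of the ultrarapid current, was at 0.07 and 0.12 in CAS and at -0.26 and -0.07 in SPI. Its difference of -0.27 missed the threshold (adjusted p = 0.179). Kcng1, a silent subunit that modifies Kv2 channels, was at -0.12 and -0.07 in CAS against 0.08 and 0.08 in SPI. This gave 0.18 (adjusted p = 0.208), from probe sets at 0.29 and 0.06. Kcna3, the Kv1.3 pore known from T lymphocytes, had the largest positive value of the class at 0.40, with CAS arrays at -0.44 and -0.03 and SPI arrays at 0.29 and 0.03. Its interval ran from -0.03 to 0.82 and its limma adjusted p was 0.261. Kcna5, Kcng1 and Kcna3 were all in the class 2 to 4.

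The other KCNQ pores, Kcnq3 and Kcnq5, were at 0.10 and 0.02, so that Kcnq1 was the 1 of 3 that passed. The difference between Kcnq1 and the others was not tested. The Kv4 pores Kcnd1, Kcnd2 and Kcnd3 were at 0.01, -0.12 and 0.0033. The Kv3 pores Kcnc1, Kcnc2 and Kcnc4 were at -0.15, -0.08 and -0.0048. The 6 genes of the ether-a-go-go class, Kcnh1 to Kcnh3, Kcnh5, Kcnh7 and Kcnh8, were between -0.06 and 0.20, with the hERG pore Kcnh2 at the upper end. The silent subunits Kcnf1, Kcns1, Kcns2, Kcns3, Kcnv1 and Kcnv2 were between -0.12 and 0.04.

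**Figure D4:**
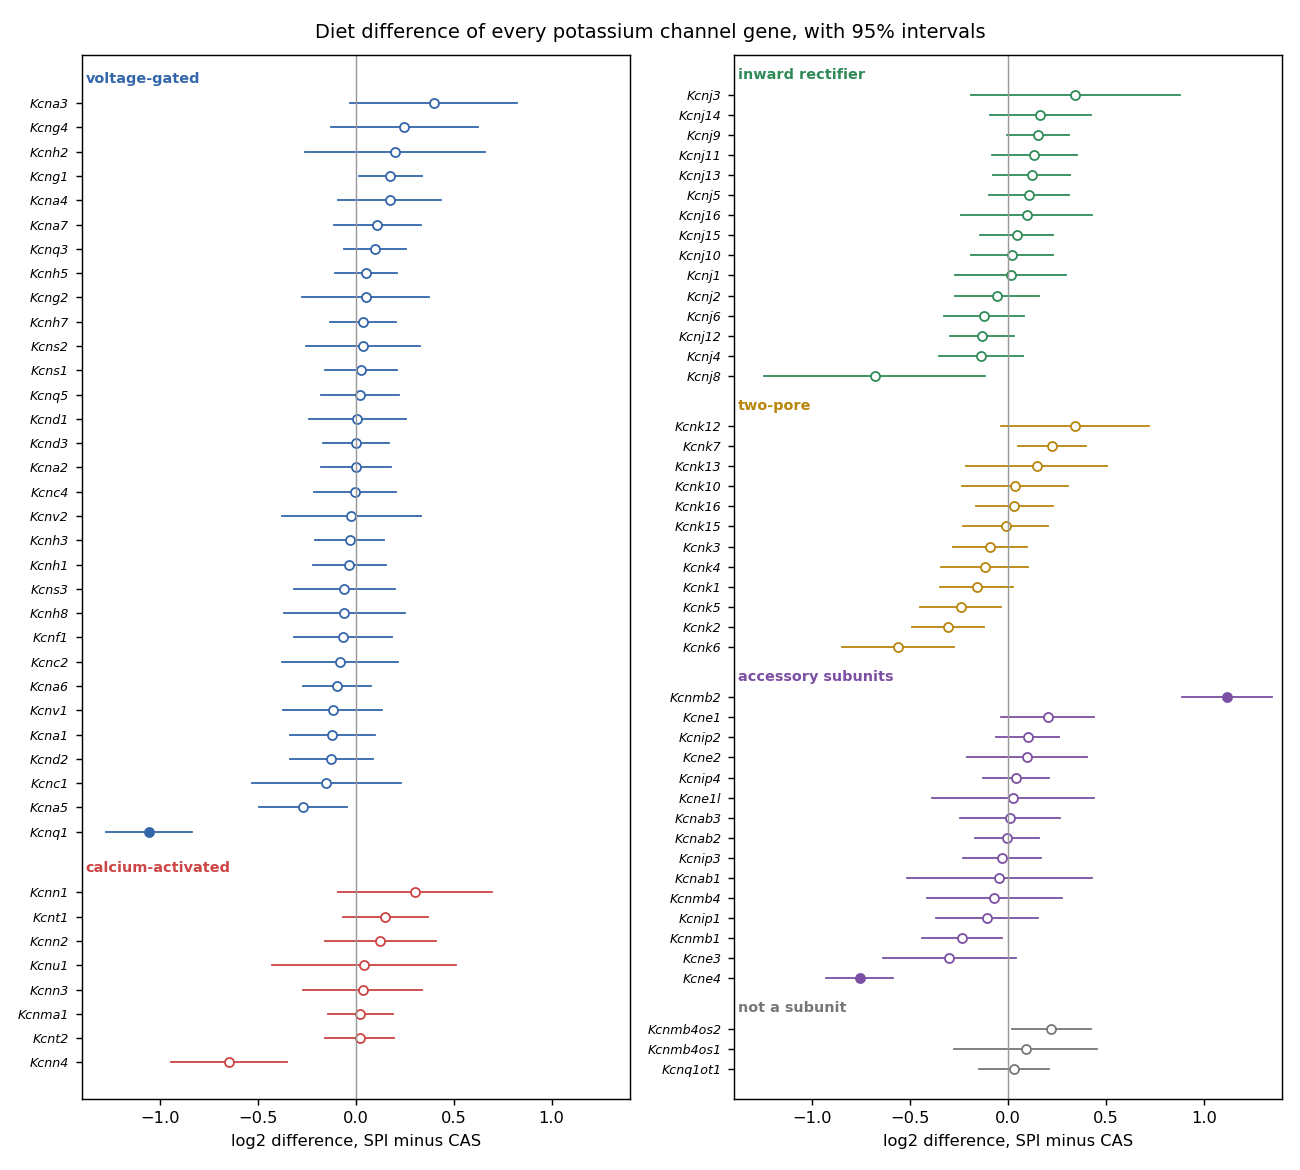
Log2 difference, SPI minus CAS (horizontal axis), with the 95% limma interval, for each of the 84 potassium channel genes (vertical axis), sorted within class; filled circles passed the test at an adjusted p of 0.05. The 3 filled circles are Kcnq1, Kcnmb2 and Kcne4, and the intervals of most other genes cross 0.

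For some voltage-gated genes the value depends on the probe set. Kcna1, the Kv1.1 pore, has 4 probe sets, and the one used, in the class 8 to 16, was at -0.12. A probe set in the class 2 to 4 was at 0.25 and 0.35 in CAS and at -0.28 and -0.25 in SPI. Its difference of -0.57 passed in a fit of single probe sets (adjusted p = 0.0390). In that test 4 of the 167 probe sets passed (2.4%, against 2.22% of all probe sets). Passing in the lower direction were 3 of the 167 (1.8%, against 1.83% of all probe sets). The other Kcna1 probe sets were at -0.36 and 0.22. Kcna2, the Kv1.2 pore, was at 0.00 on the probe set used, while its other 3 probe sets were at -0.35, -0.22 and -0.16 and did not pass. Of 46 potassium channel genes with more than 1 probe set, 23 had probe sets on opposite sides of 0.

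**Figure D5:**
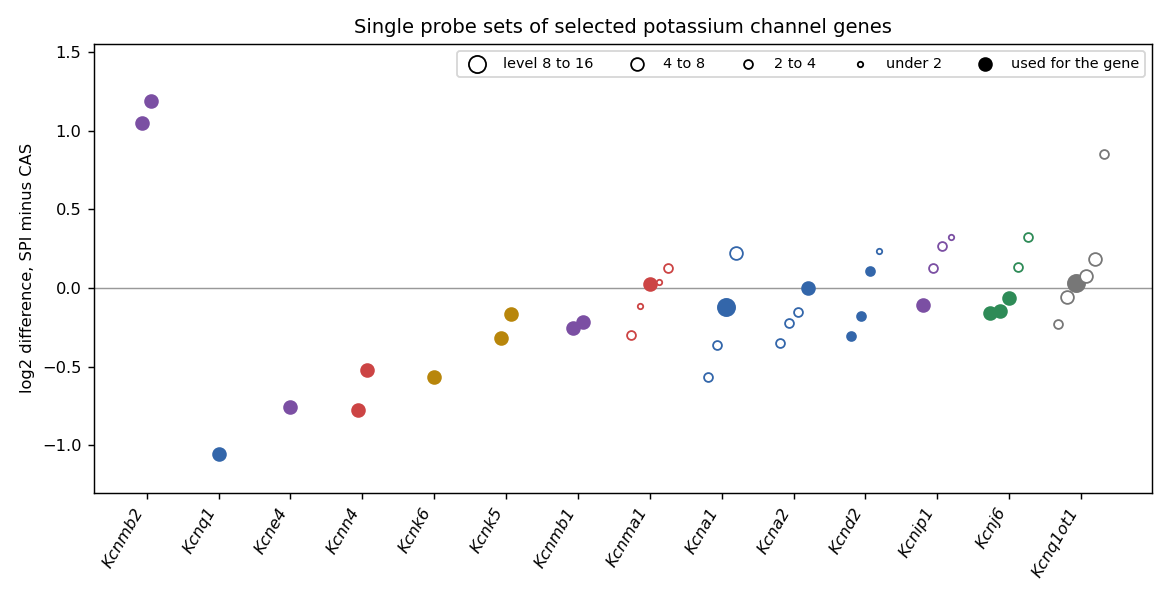
Log2 difference, SPI minus CAS (vertical axis), of each probe set of 14 potassium channel genes, 1 point per probe set, with larger circles for higher level classes and filled circles for probe sets used for the gene's value. The probe sets of Kcnmb2 agree at 1.05 and 1.19 and those of Kcnn4 at -0.52 and -0.77, while those of Kcna1, Kcnip1, Kcnj6 and Kcnq1ot1 spread across 0.

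None of 15 inward rectifiers passed (3.68% of all genes did), and their median was 0.04. In limma 1 of them had an unadjusted p under 0.05, where 21% of all genes had one. That gene was Kcnj8, the Kir6.1 pore of the ATP-sensitive channel of blood vessels. Its 1 probe set, in the class 2 to 4, was at 0.82 and 0.15 in CAS and at -0.25 and -0.15 in SPI. The SPI arrays were below both CAS arrays, but the CAS arrays lay 0.66 apart, more than in any other of the 15 genes named in the plot by array. Kcnj8 was at -0.68 (95% interval -1.25 to -0.12), at an adjusted p of 0.176. Abcc9, its sulfonylurea receptor partner, was at 0.56 and 0.61 in CAS and at -0.46 and -0.73 in SPI. Abcc9 was 2.26-fold lower (1.88 to 2.72, adjusted p = 0.0112). Both genes are pericyte markers, and that list, which holds them, had a median difference of -0.55. Of its other members Pdgfrb was at -1.46, Rgs5 at -0.997, Notch3 at -0.97 and Higd1b at -0.418. Nearer to 0 were Des at -0.19, Mcam at -0.15, Cspg4 at 0.0049 and Ndufa4l2 at 0.05. In the whole list of 10, 4 were lower and 6 did not pass. The pancreatic partners Kcnj11 and Abcc8 were at 0.13 and -0.09.

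The G protein-gated rectifiers Kcnj3, Kcnj5, Kcnj6 and Kcnj9 were at 0.34, 0.10, -0.12 and 0.15. Kcnj9 was the most even of them, with CAS arrays at -0.06 and -0.08 and SPI arrays at 0.09 and 0.07 (adjusted p = 0.250). Kcnj3 spread over 0.56 between its SPI arrays. The strong rectifiers Kcnj2, Kcnj4, Kcnj12 and Kcnj14, which set the resting voltage of muscle and nerve, were at -0.06, -0.14, -0.14 and 0.16. Kcnj12 had its CAS arrays at 0.06 and 0.05 and its SPI arrays at -0.05 and -0.10, and its direction turned, to 0.02, when the hybridization controls set the scaling. The transport rectifiers Kcnj1, Kcnj10, Kcnj13, Kcnj15 and Kcnj16 lay between 0.01 and 0.12.

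Of 12 genes of the two-pore class 0 passed in limma (3.68% of all genes did). An unadjusted p under 0.05 was found in 4 (21% of all genes had one), of which 3 were lower in SPI. Kcnk6, the lysosomal and epithelial TWIK2, was at 0.20 and 0.49 in CAS and at -0.24 and -0.20 in SPI. It was 1.48-fold lower (1.21 to 1.80), at an adjusted p of 0.0708, and it passed among genes at level 4 or above (adjusted p = 0.0431). Over its alternatives the adjusted p ran from 0.0425 to 0.333. Kcnk2, the stretch-sensitive TREK1, was at 0.15 and 0.12 in CAS and at -0.12 and -0.23 in SPI. Its difference was -0.31 (adjusted p = 0.0988). Kcnk5, the acid-sensitive TASK2 of epithelia, was at -0.24, from probe sets at -0.32 and -0.17.

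In the other direction Kcnk7, a silent relative of TWIK1, was at -0.15 and -0.08 in CAS and at 0.14 and 0.08 in SPI. Its difference of 0.22 did not pass (adjusted p = 0.159), and its probe set can bind related transcripts. Kcnk1, which is TWIK1 itself and like Kcnk7 was in the class 8 to 16, was at -0.16, from probe sets at -0.18 and -0.15. The median of the 12 was -0.05, and the values ran from -0.56 to 0.34, with Kcnk12 at the upper end. In 7 of the 12 the diets did not overlap (58.3%, against 51.8% of all genes). SPI was above in 2 (29.4% of all genes) and below in 5 (22.4% of all genes).

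Across the 84, the arrays of the diets did not overlap in 34 (40.5%, against 51.8% of all genes). Both SPI arrays lay above both CAS arrays in 17 (29.4% of all genes) and below them in 17 (22.4% of all genes). By class, the arrays were apart in 10 of the 31 voltage-gated, 2 of the 8 calcium-activated, 8 of the 15 inward rectifier and 6 of the 15 accessory genes. The median width on either side of a 95% interval was 0.22 on the log2 scale, and these intervals are not adjusted for the number of genes. For a typical potassium channel gene a difference of that size was too small to pass the adjusted test. Larger ones, such as Kcnk2 at -0.31 and Kcnn4 at -0.65, did not pass either.

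The transcripts named after channel genes did not pass. Kcnq1ot1, a long non-coding RNA transcribed antisense within Kcnq1 and known for silencing the imprinted genes around it, was at 0.02 and -0.07 in CAS and at -0.02 and 0.03 in SPI. Its difference was 0.03 (95% interval -0.15 to 0.21), beside -1.06 for Kcnq1. Its 6 probe sets disagreed, from -0.23 to 0.85, and none passed. Kcnmb4os1, which overlaps Kcnmb4, was at 0.09, and Kcnmb4os2, which lies next to Kcnmb4os1, was at 0.22.

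Potassium transport genes outside the Kcn family were taken from a list of pumps, cotransporters, channel partners and pacemaker channels, of which 33 of 44 were analysed here. Of the 33, 11 had an unadjusted p under 0.05 in limma (21% of all genes had one), 4 of them higher. The median difference was -0.07, against 0.02 over the whole table. At the adjusted threshold 4 fell (12.1%, where 2.89% of all genes fell) and 0 rose. The list was chosen with earlier results of these data known, so its share is not a result about potassium transport genes. The 4 were Abcc9 and Lrrc26, described above, and Fxyd6 and Fxyd3, which regulate the sodium and potassium pump. Fxyd6 was at 0.26 and 0.41 in CAS and at -0.30 and -0.26 in SPI, and was 1.53-fold lower (1.33 to 1.76, adjusted p = 0.0250). Fxyd3, known from epithelia, was at 0.19 and 0.26 against -0.19 and -0.24, and was 1.36-fold lower (1.21 to 1.53, adjusted p = 0.0378). With the replicate number as a block 2 passed, Abcc9 and Lrrc26, and without any 1 array 0 did. Without CAS replicate 1, CAS replicate 2, SPI replicate 1 and SPI replicate 2 the smallest adjusted p of the 4 was 0.196, 0.201, 0.0524 and 0.0901.

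Fxyd1 was at 0.25 and 0.84 in CAS and at -0.46 and -0.25 in SPI. Its difference of -0.90 did not pass (limma adjusted p = 0.0948). The pump subunit Atp1b1 was at -0.37 (adjusted p = 0.0685), from 5 probe sets, and Atp1b3 at 0.17. Among the cotransporters, Slc12a4 was at 0.32 (adjusted p = 0.0861) and Slc12a2, which brings potassium, sodium and chloride into secretory cells, at -0.07. The pacemaker channel Hcn3 was at 0.37 (adjusted p = 0.0841). The Kv4 partners Dpp6 and Dpp10 were at 0.23 and 0.13 and did not pass as genes. In the fit of single probe sets, Dpp6 and Atp1b1 each had at least 1 probe set that passed. Fxyd3 did not pass there (limma adjusted p = 0.0588).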

How the data were processed

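Total RNA of freshly sorted basal cells was labelled with biotin and hybridized to Affymetrix arrays, per the labels' protocols. Per the submitters' processing notes GCOS and RMA were used; their versions and a genome build are not given in the sources used here. As deposited, the expression values are on a log2 scale, the base being taken from RMA. Their median over the 4 arrays was 0 for every probe set to within 5.0e-07, a centring that no label records. In all 45101 probe sets were given. Controls made up 64, and of the others 34945 had 1 gene, 932 several and 9160 none listed. Symbols were updated through gene IDs with a GRCm38.p6 table, which matched 34741 of the 34945.

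The level class was read from the step size of the digits. Each gene was given the average of those probe sets that share its top level class. SPI was compared with CAS by lmFit and eBayes of limma 3.58.1, run in R 4.3.3 (two-sided, no trend and no block, 2 residual and 3.03 prior degrees of freedom), adjusted over 18193 genes, and the script was tested on simulated data. Intervals are 95% intervals from limma, whose precision is limited by the number of arrays. Potassium channel genes named were those past the threshold, those at least 0.5 in size whose diets did not overlap, and the 3 with the smallest p in each class. Kcne1l was placed with the accessory subunits although its symbol ends in a letter. The genes, lists and alternatives were chosen with earlier results of these data known, and the motifs, channel types, and other genes and probe sets described were chosen with these values in view.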

Additional observations from a re-analysis of the deposited data

How the results depend on the processing

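The 3 potassium channel genes passed in limma with the replicate number as a block (3 calls), and the number of calls was 9 when the hybridization controls centred the arrays, 5 among genes at level 4 or above, 5 with a variance trend over the level class and 6 at an adjusted p under 0.10. Over all genes 670 calls became 350 with the block, 2181, 1093, 1148 and 1481 in the same order. Those of the other potassium transport genes, 4, became 2 with the block, 7 with the hybridization controls and 8 at 0.10. Of the 7, 3 were higher in SPI, and Fxyd3 was not among them (limma adjusted p = 0.0738). The 4 calls became 6 among genes at level 4 or above and 5 with the variance trend, Atp1b1 among them in both. Without 1 array each of the 3 counts was 0 to 0, with 7 to 15 potassium channel genes at an unadjusted p under 0.05 in limma, and by an ordinary t statistic each was 0, with 11 at an unadjusted p under 0.05. Of the 19 named genes 18 kept their direction under every alternative run; Kcnj12 turned to 0.020 with the hybridization controls. The cause was not tested. Deviations of arrays with the same replicate number correlated at -0.083 over genes, and no label pairs them. Leaving out an array leaves 1 for a diet, which is assumed to vary like the other diet. The centred values hold no signal over background.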

Other observations

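Several potassium channel genes neighbour each other in the genome with no other protein-coding gene between them, in the gene order of GRCm38.p6, and their differences, SPI minus CAS on the log2 scale, are given side by side with no test of likeness. Kcnj8 and Abcc9 were both lower in SPI, at -0.68 and -1.18. The Kv1 genes Kcna5, Kcna1 and Kcna6 lie in a row and were at -0.27, -0.12 and -0.09, and the Kv1 genes Kcna3 and Kcna2 were at 0.40 and 0.00. Kcnip1, whose gene overlaps Kcnmb1, was at -0.11 and Kcnmb1 at -0.24. The two-pore genes Kcnk5 and Kcnk16 were at -0.24 and 0.03. Among the rectifiers, the neighbours Kcnj9 and Kcnj10 were at 0.15 and 0.02, Kcnj16 and Kcnj2 at 0.10 and -0.06, and Kcnj5 and Kcnj1 at 0.10 and 0.01. Of these genes Abcc9 alone passed the test (limma adjusted p = 0.0112).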
